A study of Mus musculus with 6 samples.

Results

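10 genes of activin and bone morphogenetic protein (BMP) signalling were followed in primary cultured mouse renal tubular epithelial cells (RTECs) with and without TGF-β1. They were chosen by name from the 46517 genes in the count files, for their known roles and with earlier results of these data known. All 10 were among the 15862 genes with enough counts to be tested. Inhba and Inhbb encode activin subunits. Fst and Fstl3 encode the activin-binding proteins follistatin and follistatin-like 3. Bmp2, Bmp4, Bmp6 and Bmp7 encode BMP ligands. Grem1 encodes the secreted BMP antagonist gremlin 1, and Bambi encodes a membrane pseudoreceptor that has no kinase domain. Cultures labelled CTL and TGF-β1, 3 of each, came from kidneys of wild-type FvB mice, 4 to 6 weeks old by the labels and slightly younger and male by the study's methods. At 70% confluence all cultures went into serum-free medium for 24 h, and the TGF-β1 cultures then received 50 ng/ml TGF-β1 for 24 h. No vehicle is named for CTL. The cells were a filtered collagenase digest of kidney, with no sorting by nephron segment named. The labels do not say whether cultures of one group came from separate animals, so the p-values measure the spread between these cultures only.

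Activins and BMPs are dimeric ligands of the TGF-β superfamily. Activins, like TGF-β1, signal mainly through Smad2 and Smad3, whereas BMPs signal mainly through Smad1, Smad5 and Smad9. Follistatins bind activins outside the cell, gremlins bind BMPs, and the amount of free ligand depends on both sides. In the kidney, Bmp7 is known for its part in nephron formation and in the adult tubule, and Grem1 for its re-expression in fibrosis.

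TGF-β1–treated RTECs had more Fstl3 and less Fst, Bmp2 and Bmp6 transcript than CTL cultures. With Benjamini-Hochberg adjustment over all tested genes and a threshold of 0.05, edgeR's quasi-likelihood test called 1 of the 10 genes higher, beside 5.00% of all tested genes, and 3 of the 10 lower, beside 6.69%. Inhba was also higher in every TGF-β1 culture, but the spread between cultures of one group was wide and the test did not call it. Cultures of equal replicate number deviated alike from their group means, least clearly for replicate 1, though the labels state no pairing. Each TGF-β1 culture was therefore also compared with the CTL culture of the same number (a replicate block). This called 2 genes higher (Inhba and Fstl3) and 7 lower, with Inhbb alone not called. In that fit, 15.1% of all genes were higher and 19.1% were lower. By their normalized counts alone, 2 of the 10 genes had all TGF-β1 cultures above all CTL cultures and 3 had them all below, beside 17.2% and 18.0% of all genes. With library size as the only scaling the calls on the 10 genes were the same, but 25.7% of all called genes were higher, against 42.8% with TMM scaling. The median log2 fold change was -0.62 over the 10 genes and 0.00 over all genes. Because the 10 genes were chosen with earlier results known, these comparisons with all genes are descriptions and no test.

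**Figure D1:**
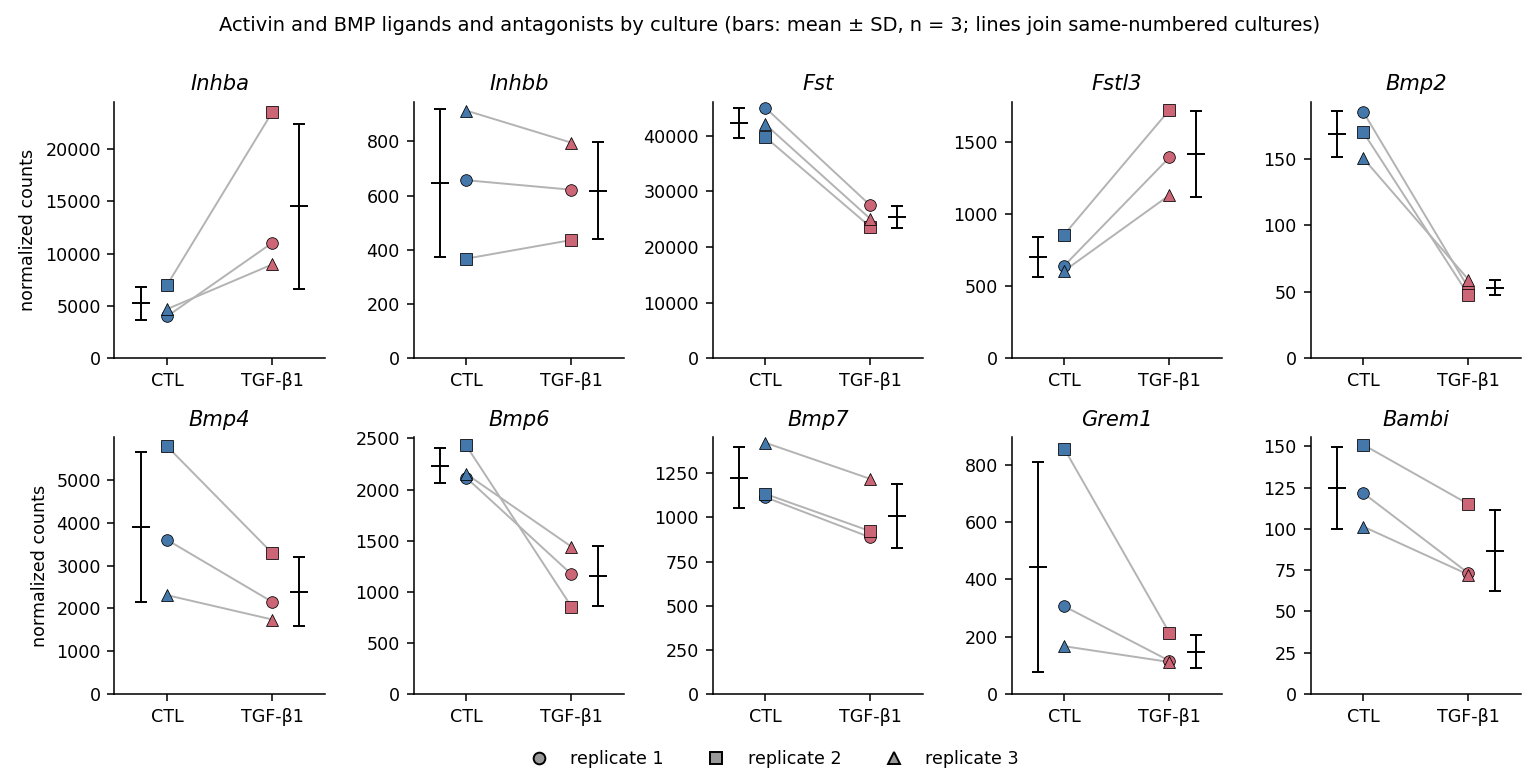
Normalized counts (vertical axes, starting at 0) of the 10 genes in each CTL culture (blue) and each TGF-β1 culture (red), with symbols for the replicate number, lines joining same-numbered cultures, and bars for the mean ± SD (n = 3). Inhba and Fstl3 lie higher and Fst, Bmp2 and Bmp6 lie lower in every TGF-β1 culture than in any CTL culture, and the groups overlap for the other genes.

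Totals on genes were 28313080 to 34183497 counts per library, so that 3 counts, the floor used here, corresponded to 0.0878 to 0.106 CPM (counts scaled to the library's total), for counting error only. No pair of libraries matched within sampling noise. The TGF-β1 response was read from 6 known target genes, of which 5 rose, beside 5.00% of all genes. Among them were Fn1 (log2 fold change 1.04, adjusted p = 0.00379 by edgeR) and Skil (0.76, adjusted p = 0.00379). The remaining target, Ccn2, did not pass by group (0.18, adjusted p = 0.22 by edgeR) but did with the replicate block (0.18, adjusted p = 0.0438). The 8 epithelial markers, none of them at 0, summed to 1120 to 2839 CPM in CTL and 963 to 2318 CPM with TGF-β1. Of these, Cdh16 (log2 fold change -1.50, adjusted p = 0.00922 by edgeR) and Pax8 (-0.77, adjusted p = 0.00436) fell, beside 6.69% of all genes. With the replicate block 6 of 8 were lower, beside 19.1% of all genes. Krt8 (0.06) and Krt18 (0.12) did not pass with or without the block. The 6 proximal tubule markers summed to 77.0 to 92.6 CPM in CTL and 35.4 to 49.1 CPM with TGF-β1. Only 3 of them had enough counts to be tested, and 2 fell, beside 6.69% of all genes. Lrp2 fell from 62.5 to 74.2 CPM in CTL to 28.9 to 41.9 CPM with TGF-β1 (adjusted p = 0.0165 by edgeR). Aqp1 fell as well (log2 fold change -2.91, adjusted p = 0.00919), while Cubn did not (0.09, adjusted p = 0.698). Slc34a1 was at no more than 0.344 CPM. The part of these falls in the lower levels of Fst, Bmp2 and Bmp6 was not tested. The summed markers of the thick limb and distal tubule (1.12 to 3.07 CPM) and of the collecting duct (0.294 to 1.41 CPM) were low. Endothelial and leukocyte lists summed to 2.71 to 5.04 and 6.41 to 20.5 CPM. The podocyte marker Nphs1 was at no more than 0.182 CPM, while Wt1 and Synpo were well detected. The 2 cultures of replicate 2 stood apart from the others. Their 8 fibroblast markers summed to 2570 and 3360 CPM against 1033 to 1437 CPM elsewhere, mostly from Col1a1, Col1a2 and Col3a1, with Lum and Dpt at 0 or near it. Pdgfra was not raised in them, at 0.88 CPM in CTL (0.88 and 1.52 in the others) and 0.65 with TGF-β1 (1.35 and 2.22). Pdgfrb was raised, at 227 CPM in CTL (102 and 68.3 in the others) and 115 with TGF-β1 (51.1 and 45.8). So was Dcn, at 12.3 CPM in CTL (3.02 and 5.54) and 7.07 with TGF-β1 (1.67 and 1.04). The epithelial markers of these 2 cultures summed to 1120 and 963 CPM against 1882 to 2839 CPM. In CTL, however, replicate 2 was not the lowest culture for Pax8 (215 CPM), Pax2 (100) or Cdh16 (251). Y-linked genes summed to 151 and 142 CPM in the replicate 2 cultures and to no more than 0.172 CPM in the others. On this, 4 of the 6 cultures went against the male sex given by the methods. In bulk RNA, fewer cells of a type and less RNA per cell cannot be told apart.

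The sequences before the start sites are shown for Grem1, Inhba, Fstl3 and Bmp6, which differed most between the groups among the 6 genes that the RefSeq promoter table holds (the others were Bmp4 and Inhbb). Each has 300 bases, 250 before and 50 after the start that RefSeq annotates, 5′ to 3′ on the strand of the gene in build GRCm38.p6. For Bmp6 that start lies downstream of the GENCODE start used for the gene's position, so that its window falls inside the GENCODE gene. The windows are chr2:113758599-113758898 on the minus strand for Grem1, and chr13:16011601-16011900, chr10:79777024-79777323 and chr13:38345466-38345765 on the plus strand for Inhba, Fstl3 and Bmp6. Capitals mark the only matches to the Smad-binding motif CAGACA, which reads TGTCTG on the other strand, and to the GC-rich motif GGCGCC, which reads the same on both strands.
Grem1: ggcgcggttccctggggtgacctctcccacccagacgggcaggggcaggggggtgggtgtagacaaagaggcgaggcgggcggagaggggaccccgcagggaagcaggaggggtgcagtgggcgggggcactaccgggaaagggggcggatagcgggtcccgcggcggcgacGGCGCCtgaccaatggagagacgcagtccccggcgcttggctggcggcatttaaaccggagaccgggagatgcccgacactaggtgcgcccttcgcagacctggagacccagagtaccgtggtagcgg
Inhba: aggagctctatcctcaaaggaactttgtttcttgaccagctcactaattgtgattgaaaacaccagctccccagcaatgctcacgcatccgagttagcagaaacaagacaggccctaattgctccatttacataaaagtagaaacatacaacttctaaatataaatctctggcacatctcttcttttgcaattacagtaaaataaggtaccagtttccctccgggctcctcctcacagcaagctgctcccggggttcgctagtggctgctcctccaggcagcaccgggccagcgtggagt
Fstl3: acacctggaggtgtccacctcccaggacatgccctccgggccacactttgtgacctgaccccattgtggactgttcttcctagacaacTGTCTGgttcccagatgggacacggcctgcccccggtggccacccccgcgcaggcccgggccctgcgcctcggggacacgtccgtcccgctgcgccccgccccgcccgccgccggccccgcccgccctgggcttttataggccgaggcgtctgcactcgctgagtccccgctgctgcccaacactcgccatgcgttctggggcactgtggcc
Bmp6: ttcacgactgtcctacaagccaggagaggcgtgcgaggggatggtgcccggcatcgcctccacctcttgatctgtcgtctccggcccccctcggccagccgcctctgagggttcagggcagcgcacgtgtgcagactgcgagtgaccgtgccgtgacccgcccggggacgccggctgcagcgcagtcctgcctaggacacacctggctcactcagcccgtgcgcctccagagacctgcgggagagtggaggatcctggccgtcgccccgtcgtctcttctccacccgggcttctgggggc
CAGACA or its complement was present in 21.0% of 32851 promoters of this length and in 1 of the 6, that of Fstl3, starting 162 bases before the start. GGCGCC was present in 11.9% of promoters and in 1 of the 6, that of Grem1, starting 78 bases before the start. The Inhba window was the least GC-rich of the 6, at 47.7% with 7 CpG dinucleotides, close to the median promoter (52.7% and 7). The Fstl3 and Grem1 windows each had 70.7% GC, with 25 and 28 CpG dinucleotides, and the Bmp6 window had 69.3% and 27. A match is a description of the letters and not a binding site.

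Inhba (ENSMUSG00000041324.14, GRCm38 chr13:16011851-16031621, plus strand) encodes the βA subunit, which forms activin A as a homodimer. Its normalized counts were 4004, 7004 and 4695 in CTL replicates 1, 2 and 3 and 11032, 23528 and 8965 in TGF-β1 replicates 1, 2 and 3. The groups did not overlap, and replicate 2 was the highest culture of each. The mean went from 5234 ± 1571 (SD, n = 3) to 14508 ± 7879 (SD, n = 3), a 2.77-fold ratio, or 1.47 ± 0.42 (standard error) as a log2 fold change, which did not pass (adjusted p = 0.0755 by edgeR). Within same-numbered pairs the log2 differences were 1.46, 1.75 and 0.93, all higher with TGF-β1. The fit with the replicate block gave 1.38 ± 0.15 (standard error) and passed (adjusted p = 0.00136). Without both replicate 2 cultures and without the block the value was 1.2 and passed (adjusted p = 0.00602), but it did not pass in the same fit without replicate 1 (adjusted p = 0.417) or 3 (0.163). TGF-β1 replicate 2 alone moved the value most, to 0.93 when it was left out.

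Inhbb (ENSMUSG00000037035.5, chr1:119415465-119422248, minus strand) encodes the βB subunit of activin B and activin AB. Normalized counts were 657, 367 and 914 in CTL and 622, 436 and 795 in TGF-β1 cultures of replicates 1, 2 and 3. The groups overlapped throughout, and replicate 2 was the lowest culture in both, opposite to Inhba. The mean was 646 ± 273 (SD, n = 3) in CTL and 618 ± 180 (SD, n = 3) with TGF-β1. No difference was detected, at a log2 fold change of -0.06 ± 0.37 (standard error) and an adjusted p of 0.935 by edgeR, and the pairs did not share a direction (-0.08, 0.25 and -0.20). Inha, the α subunit that turns βA or βB into an inhibin, had 199 to 258 normalized counts in CTL and 145 to 198 with TGF-β1. It did not pass by group (log2 fold change -0.41, adjusted p = 0.152) but did with the replicate block (-0.42, adjusted p = 0.0163).

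Both follistatins changed, in opposite directions. Fst (ENSMUSG00000021765.9, chr13:114452290-114458951, minus strand) binds activins with high affinity. It had the highest level of the 10 genes, with 45029, 39751 and 42046 normalized counts in CTL and 27443, 23576 and 25015 in TGF-β1 cultures. The groups were far apart and each was narrow. Fst fell from 42275 ± 2647 (SD, n = 3) to 25345 ± 1954 (SD, n = 3), by 0.74 on the log2 scale (standard error 0.08, adjusted p = 0.00698 by edgeR). The paired log2 differences of -0.71, -0.75 and -0.75 were nearly equal, and the call held without each culture in turn (adjusted p 0.0148 to 0.0455). Of its exon bases 2.51% are shared with the antisense gene Gm47040.

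Fstl3 (ENSMUSG00000020325.10, chr10:79777272-79782630, plus strand) is a secreted relative of follistatin that also binds activins. Its normalized counts were 643, 860 and 607 in CTL and 1397, 1727 and 1134 in TGF-β1 cultures. Every TGF-β1 culture lay above every CTL culture, and replicate 2 was the highest in both groups. Fstl3 rose 2.02-fold, from 703 ± 136 (SD, n = 3) to 1419 ± 297 (SD, n = 3), or by 1.01 ± 0.20 (standard error) on the log2 scale (adjusted p = 0.0294 by edgeR). The pairs gave 1.12, 1.01 and 0.90. The call was lost without CTL replicate 1 (adjusted p = 0.13), CTL replicate 3 (0.0746), TGF-β1 replicate 1 (0.101) or TGF-β1 replicate 2 (0.0545), and with no filter on low counts (0.0507). Of its exon bases 47.3% are shared with Prss57 on the opposite strand, and the strand setting of the counting is not given in the sources used here. Prss57 itself had 0 to 3 counts.

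**Figure D2:**
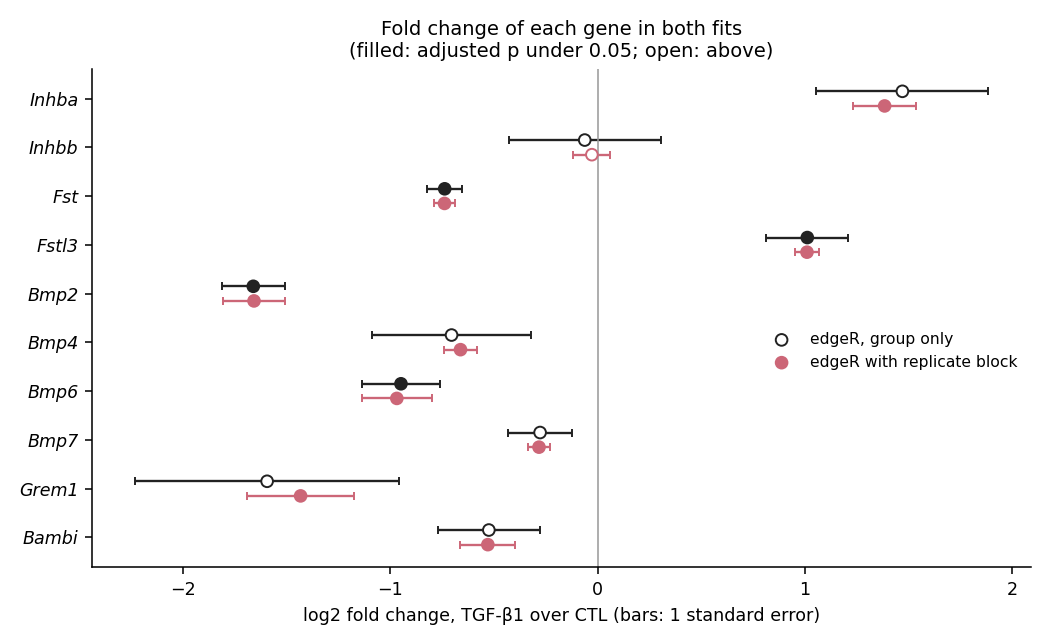
Log2 fold change of TGF-β1 over CTL (horizontal axis) for each of the 10 genes (rows), by edgeR with the group only (black) and with the replicate block (red), with bars for 1 standard error and filled points for adjusted p under 0.05. Fst, Fstl3, Bmp2 and Bmp6 are filled in both, and Inhba, Bmp4, Bmp7, Grem1 and Bambi are filled only with the block, where their bars are shorter.

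Of the BMP ligands, Bmp2 and Bmp6 fell. Bmp2 (ENSMUSG00000027358.6, chr2:133552159-133562885, plus strand) had the largest log2 fold change of the 10 genes with all 6 cultures, close to that of Grem1, which was larger without CTL replicate 1 (-1.80 against -1.59), CTL replicate 3 (-1.98 against -1.74) or TGF-β1 replicate 2 (-1.97 against -1.59), as was Inhba without CTL replicate 2 (1.74 against -1.66). Its normalized counts were 185, 170 and 150 in CTL and 52.8, 47.6 and 59.1 in TGF-β1 cultures. The lowest CTL culture was well above the highest TGF-β1 culture. The mean went from 169 ± 17.5 (SD, n = 3) to 53.2 ± 5.76 (SD, n = 3), so that CTL was 3.16-fold higher, at a log2 fold change of -1.66 ± 0.15 (standard error) and an adjusted p of 0.00379 by edgeR. The call held without each culture in turn, with adjusted p 0.0086 to 0.0356.

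Bmp6 (ENSMUSG00000039004.6, chr13:38345107-38500302, plus strand) encodes a BMP of the same subgroup as Bmp7, known for its control of hepcidin in the liver. Normalized counts were 2117, 2431 and 2152 in CTL and 1172, 856 and 1441 in TGF-β1 cultures. The groups did not overlap, and replicate 2 was the highest CTL and the lowest TGF-β1 culture. Bmp6 fell by 0.95 ± 0.19 (standard error) on the log2 scale, from 2233 ± 172 (SD, n = 3) to 1156 ± 293 (SD, n = 3), with an adjusted p of 0.0302 by edgeR. The pairs differed in size (-0.85, -1.51 and -0.58). Leaving out CTL replicate 1, 2 or 3 gave adjusted p of 0.106, 0.0716 and 0.0651, and leaving out TGF-β1 replicate 1 gave 0.107, all above the threshold, as was the fit with no filter on low counts (0.0668). With the replicate block Bmp6 passed (-0.97, adjusted p = 0.00801), though not without replicate 3 in both groups (-1.17, adjusted p = 0.0992). Of its exon bases 5.74% are shared with Txndc5 on the opposite strand, which had 10412 to 13675 counts.

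Bmp4 (ENSMUSG00000021835.15, chr14:46383520-46390669, minus strand), a close relative of Bmp2 that acts in early kidney and ureter development, varied more within groups than between them. It had 3602, 5787 and 2311 normalized counts in CTL and 2151, 3289 and 1742 in TGF-β1 cultures. The groups overlapped, and replicate 2 was the highest and replicate 3 the lowest in both. The means were 3900 ± 1757 (SD, n = 3) and 2394 ± 802 (SD, n = 3), and the log2 fold change by group, -0.70 ± 0.38 (standard error), did not pass (adjusted p = 0.289 by edgeR). It was -0.30 without CTL replicate 2. Each TGF-β1 culture was below the CTL culture of its number (-0.74, -0.82 and -0.41), and with the replicate block Bmp4 passed at -0.66 ± 0.08 (standard error, adjusted p = 0.000812).

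Bmp7 (ENSMUSG00000008999.7, chr2:172868012-172940321, minus strand) had 1115, 1134 and 1423 normalized counts in CTL and 887, 922 and 1218 in TGF-β1 cultures. One TGF-β1 culture, replicate 3, lay within the CTL range. The difference was the smallest of the 4 BMPs, at -0.28 ± 0.16 (standard error) on the log2 scale, and did not pass (adjusted p = 0.301 by edgeR). Leaving out replicate 3 of CTL gave -0.16, and leaving out that of TGF-β1 gave -0.44. The pairs were alike (-0.33, -0.30 and -0.22), and with the replicate block the value of -0.28 passed (adjusted p = 0.00409), though not without replicate 1 in both groups (0.0728).

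Grem1 (ENSMUSG00000074934.3, chr2:113746164-113758646, minus strand) binds Bmp2, Bmp4 and Bmp7 proteins and keeps them from their receptors. Normalized counts were 306, 856 and 167 in CTL and 116, 213 and 112 in TGF-β1 cultures. The CTL range was wide and TGF-β1 replicate 2 lay inside it. The means were 443 ± 364 (SD, n = 3) and 147 ± 57.6 (SD, n = 3), and the log2 fold change of -1.60 ± 0.64 (standard error) did not pass (adjusted p = 0.167 by edgeR), though DESeq2 called it (adjusted p = 0.0261). Without CTL replicate 2 the value was -0.69. All pairs were lower with TGF-β1 (-1.40, -2.0 and -0.58), and with the replicate block Grem1 passed at -1.43 ± 0.26 (standard error, adjusted p = 0.00872).

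Bambi (ENSMUSG00000024232.2, chr18:3507923-3516404, plus strand), whose product dampens TGF-β superfamily receptors, had 122, 151 and 101 normalized counts in CTL and 73.1, 115 and 72.3 in TGF-β1 cultures. The groups overlapped through TGF-β1 replicate 2. All pairs were lower (-0.73, -0.39 and -0.49), and the log2 fold change of -0.53 ± 0.25 (standard error) did not pass by group (adjusted p = 0.224 by edgeR). The same value passed with the replicate block (adjusted p = 0.017), but not without replicate 1 in both groups (-0.44, adjusted p = 0.169).

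Levels were compared between genes as CPM per kb of exon. In CTL, Fst stood far above the rest at 291 ± 18.2 (SD, n = 3), followed by Bmp4 at 54.8 ± 24.7, Inhba at 25.9 ± 7.76 and Bmp6 at 18.1 ± 1.39. Bmp7 (9.62 ± 1.36) and Fstl3 (9.09 ± 1.76) came next, then Inhbb (4.79 ± 2.03), Grem1 (3.37 ± 2.77), Bmp2 (1.5 ± 0.156) and Bambi (0.776 ± 0.155). The ranges of Bmp4 and Inhba, Bmp7 and Fstl3, Inhbb and Grem1, and Grem1 and Bmp2 overlapped, so these neighbours had no fixed order. In TGF-β1 cultures Fst was still first at 174 ± 13.4 (SD, n = 3), and Inhba (71.7 ± 38.9) came before Bmp4 (33.6 ± 11.3), with overlapping ranges. Fstl3 (18.3 ± 3.84) then stood above Bmp6 (9.36 ± 2.37) and Bmp7 (7.93 ± 1.43) without overlap, while Bmp6 and Bmp7 overlapped. Inhbb was at 4.58 ± 1.33 and Grem1 at 1.12 ± 0.438, and the ranges of Bambi (0.540 ± 0.152) and Bmp2 (0.473 ± 0.0512) overlapped at the bottom. Per kb of exon not shared with another gene, Fstl3 was at 17.2 in CTL and 34.8 with TGF-β1.

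**Figure D3:**
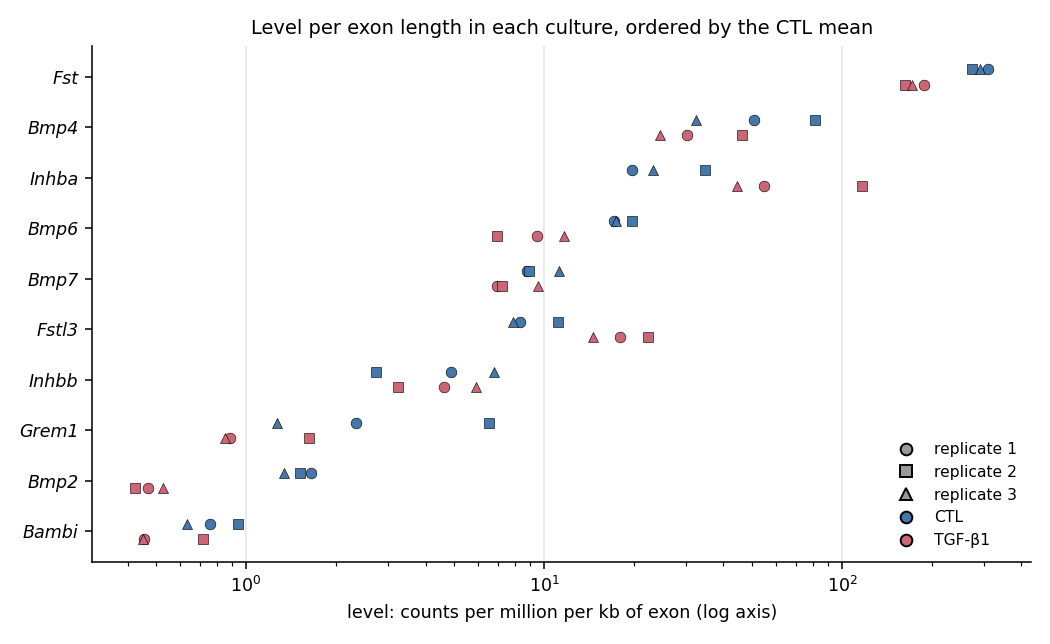
Level in CPM per kb of exon (horizontal log axis) for each of the 10 genes (rows, ordered by the CTL mean), with 1 point per culture, blue for CTL and red for TGF-β1, and symbols for the replicate number. Fst is first in every culture, from 162 to 310, and Bmp2 and Bambi share the bottom of the plot in TGF-β1 cultures.

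Ligand and antagonist transcripts were then set against each other within each culture, per kb of exon and with no test. Fst exceeded Inhba 15.7-, 7.90- and 12.5-fold in CTL replicates 1, 2 and 3 and 3.46-, 1.40- and 3.89-fold in TGF-β1 replicates 1, 2 and 3. The log2 ratio of Inhba to Fst was -3.53 ± 0.50 (SD, n = 3) in CTL and -1.41 ± 0.81 with TGF-β1, without overlap, and rose within the pairs by 2.18, 2.50 and 1.68. Fst transcript remained above Inhba transcript in all 6 cultures. Over both activin subunits and both follistatins, the follistatin sum was 12.9-, 7.62- and 9.91-fold the subunit sum in CTL and 3.50-, 1.54- and 3.72-fold with TGF-β1. Subunit sums were 24.7, 37.3 and 30.0 CPM per kb in CTL and 59.1, 120 and 50.2 with TGF-β1, while follistatin sums were 318, 285 and 297 and then 207, 185 and 187. Both sides of the ratio thus differed without overlap.

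Within each pair of relatives the make-up differed as well. Fst exceeded Fstl3 37.3-, 24.6- and 36.9-fold in CTL and 10.5-, 7.27- and 11.8-fold with TGF-β1, so that Fstl3 went from 2.61% to 3.9% of the follistatin sum in CTL to 7.84% to 12.1% with TGF-β1. Per kb of exon not shared with another gene these folds were lower, at 20.2, 13.3 and 19.9 in CTL and 5.66, 3.93 and 6.35 with TGF-β1, and still did not overlap. Inhba exceeded Inhbb 4.06-, 12.7- and 3.42-fold in CTL and 11.8-, 35.9- and 7.51-fold with TGF-β1, with overlapping groups and a higher ratio in each TGF-β1 culture than in the CTL culture of its number. Bmp4 made up 52.0% to 73.0% of the summed level of the 4 BMPs in CTL and 52.9% to 76.0% with TGF-β1, ranges that overlap almost wholly. Bmp2 made up 1.36% to 2.14% and 0.696% to 1.14%. The BMP sum was 78.2, 111 and 62.4 CPM per kb in CTL and 47.2, 60.8 and 46.2 with TGF-β1, and exceeded Grem1 33.5-, 17.1- and 49.1-fold and 53.5-, 37.4- and 54.3-fold. These ratios to Grem1 overlapped between the groups and were higher within every pair. They leave out all other BMP antagonists and modulators. The BMP sum includes Bmp6, which is not among the Grem1 ligands named above.

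**Figure D4:**
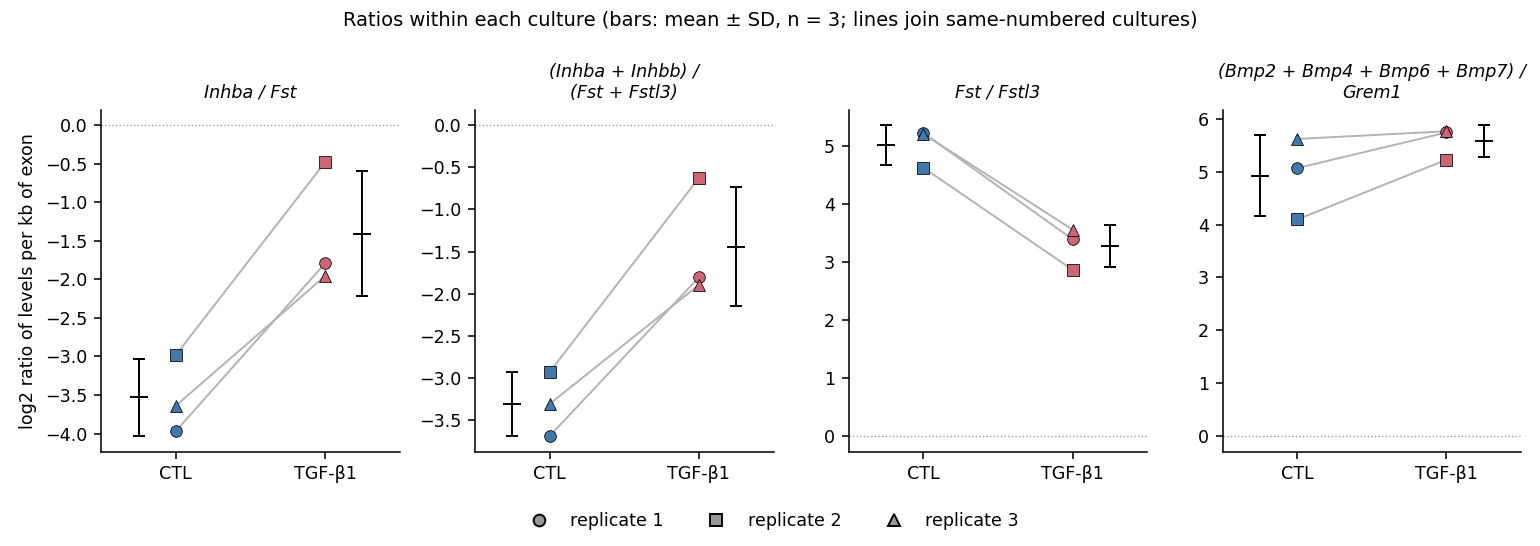
Log2 ratio of levels per kb of exon (vertical axes) in each CTL culture (blue) and TGF-β1 culture (red), for Inhba to Fst, activin subunits to follistatins, Fst to Fstl3, and the 4 BMPs to Grem1, with symbols for the replicate number, lines joining same-numbered cultures and bars for the mean ± SD (n = 3). The first 3 ratios do not overlap between the groups, and the 4 BMPs to Grem1 do.

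Replicate 2, which had a higher fibroblast and a lower epithelial marker sum, also stood apart in several of these genes. Relative to the geometric mean of replicates 1 and 3, Grem1 was 3.79-fold in CTL and 1.88-fold in TGF-β1 cultures, Bmp4 was 2.01- and 1.70-fold, and Inhba was 1.62- and 2.37-fold. Inhbb was 0.474- and 0.620-fold. Fst (0.914- and 0.90-fold) and Bmp7 (0.90- and 0.887-fold) were close to the other replicates. Over all tested genes the median absolute log2 distance of replicate 2 from the other replicates was 0.15 in CTL and 0.17 with TGF-β1. The part of the marker difference in these values was not tested.

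Receptors for both ligand families were present. Of 14 receptors and co-receptors 12 were tested, 2 rose and 2 fell, beside 5.00% and 6.69% of all genes, with a median log2 fold change of 0.00. Acvr1, a type I receptor for BMPs, rose, with 2546 to 2856 normalized counts in CTL and 4680 to 4765 with TGF-β1 (log2 fold change 0.81, adjusted p = 0.00166 by edgeR). Bmpr2, the BMP type II receptor, rose as well, with 7865 to 8262 and then 10736 to 10984 (0.44, adjusted p = 0.00602). Tgfbr3, the co-receptor betaglycan, fell, with 568 to 807 and then 247 to 326 (-1.32, adjusted p = 0.00925), and its call was lost without CTL replicate 1 (adjusted p = 0.0505). Acvr2b, an activin type II receptor, fell by 0.63 on the log2 scale (adjusted p = 0.0382), a call lost without any 1 of the 6 cultures (adjusted p 0.0587 to 0.16). The replicate block gave 3 receptors higher and 5 lower, beside 15.1% and 19.1% of all genes. For the lists that follow the shares of all genes are the same: 5.00% higher and 6.69% lower by group, and 15.1% and 19.1% with the block.

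Most other ligands had few counts. Of 24 listed, 23 were in the files and 8 had enough counts to be tested, and no untested ligand had more than 20 counts in any library. Bmp3, an atypical BMP that opposes the others, fell. It had 198, 385 and 139 normalized counts in CTL and 17.3, 20.7 and 31.0 in TGF-β1 cultures, so that CTL was 10.4-fold higher (log2 fold change -3.37, adjusted p = 0.0122 by edgeR). The call was lost without CTL replicate 1 (adjusted p = 0.0547) or TGF-β1 replicate 1 (0.0639). No other ligand passed by group, and the list's median was -0.15. The replicate block gave 1 ligand higher and 3 lower.

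Among 16 other extracellular antagonists and modulators 12 were tested, 1 rose and 3 fell, with a median of -0.17. Sostdc1, a BMP and Wnt antagonist of the distal nephron, fell from 86.0, 68.3 and 63.2 normalized counts in CTL to 1.0, 1.0 and 5.6 (log2 fold change -4.72, adjusted p = 0.00524 by edgeR), the last of which are near the floor. Chrdl1, a chordin relative, fell by 1.81 (adjusted p = 0.013, and 0.0679 without TGF-β1 replicate 1). Twsg1, which modulates BMP binding to chordin, fell by 0.37 (adjusted p = 0.0294), and kept its call only without CTL replicate 3, with adjusted p 0.0508 to 0.137 without each other culture. Of these antagonists 2 were higher and 4 lower with the replicate block.

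Of the 6 Smads that carry these signals Smad5 rose slightly (log2 fold change 0.22, adjusted p = 0.0287 by edgeR) and the other 5 did not pass. The Smad5 call was lost with library size as the only scaling and without any culture but TGF-β1 replicate 2 (adjusted p 0.0602 to 0.127). In the blocked fit 1 Smad was higher and 3 were lower. Of 9 genes known to respond to BMPs 1 rose and 1 fell, with a median of -0.51. Smad7, an inhibitory Smad that TGF-β1 also induces, rose, with 3411 to 3796 normalized counts in CTL and 4765 to 5833 with TGF-β1 (0.55, adjusted p = 0.014). Id2, an inhibitor of basic helix-loop-helix factors, fell from 920, 1313 and 716 normalized counts to 230, 207 and 299 (-2.0, adjusted p = 0.0104). Without CTL replicate 1 or TGF-β1 replicate 1 the adjusted p was 0.075 and 0.0572 for Smad7 and 0.053 and 0.0576 for Id2. In the blocked fit 6 BMP response genes were lower, among them Id3 and Atoh8, and 1 was higher, beside 19.1% and 15.1% of all genes. Id1 lost that call without replicate 1 or 2 in both groups (adjusted p = 0.266 and 0.155), Id4 without replicate 1 (0.0622) and Smad6 without replicate 3 (0.157). Library size alone gave 2 lower, beside 1467 of all 15862 tested genes.

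**Figure D5:**
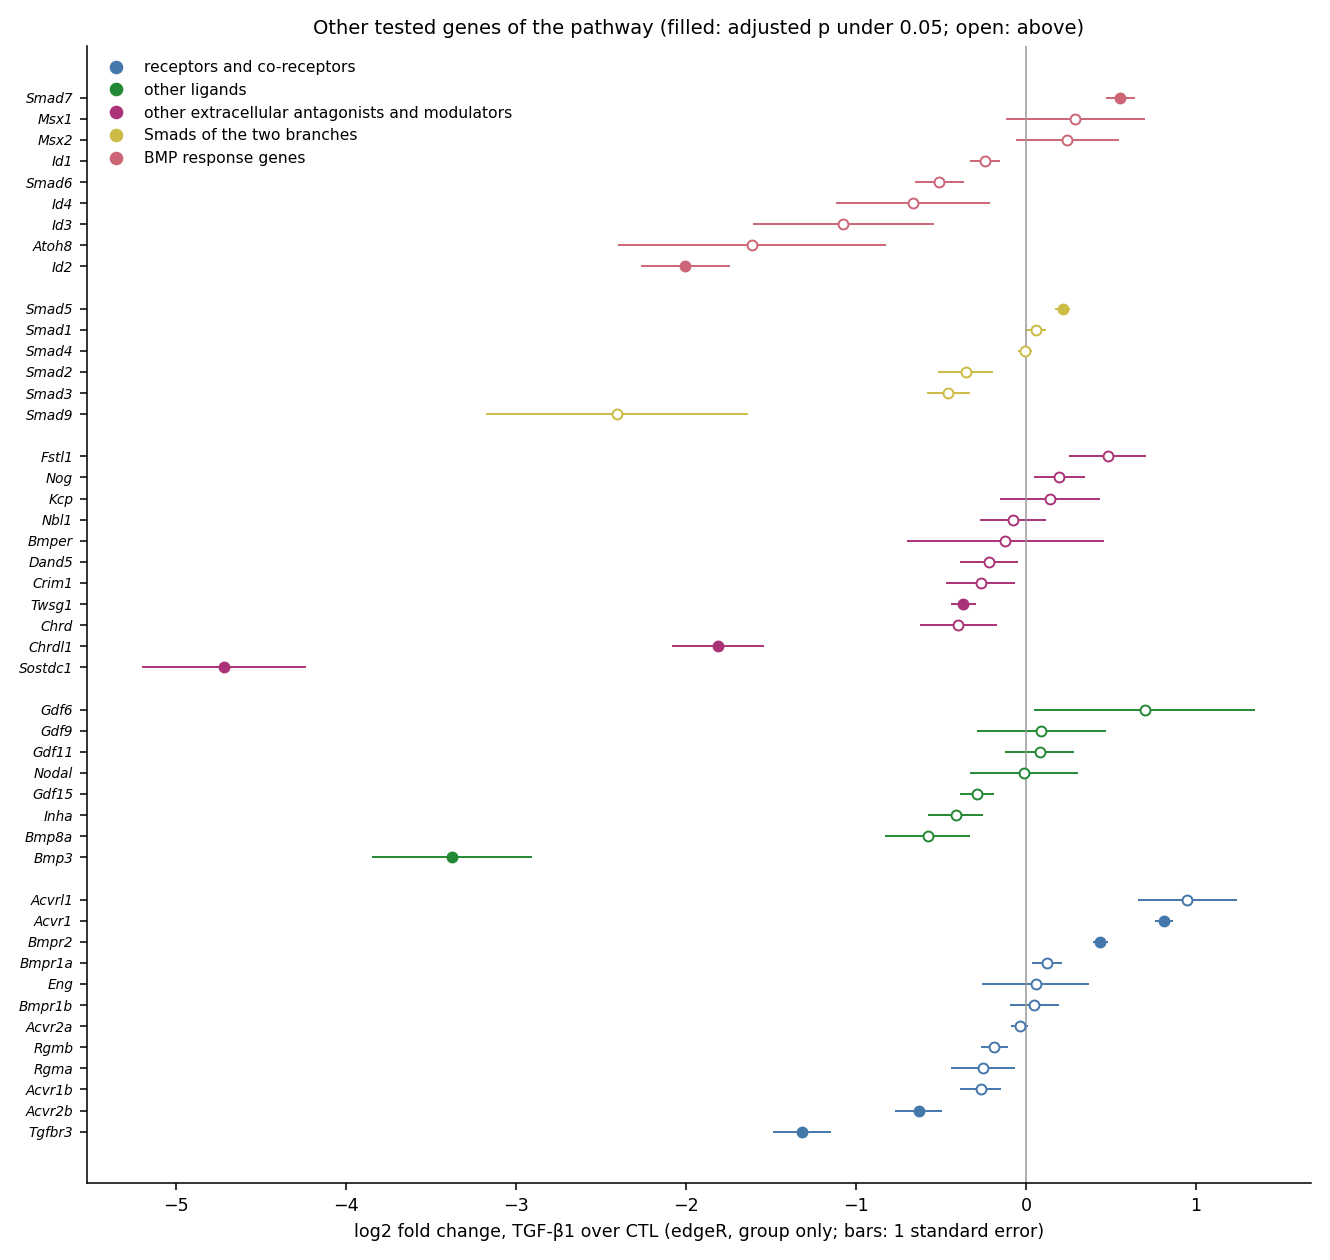
Log2 fold change of TGF-β1 over CTL (horizontal axis, edgeR with the group only) for other tested genes of the pathway (rows), coloured by list, with bars for 1 standard error and filled points for adjusted p under 0.05. Sostdc1 (-4.72) and Bmp3 (-3.37) lie farthest to the left, and most receptors and Smads lie near 0.

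The genes whose pattern over the 6 cultures was most like that of Bmp2, the gene with the largest fold change over all 6 cultures, were Depdc1b, Spsb4 and Nid2, with Pearson correlations of log2 CPM of 0.999, 0.999 and 0.999. For Fst, the gene with the highest level, they were Zpld1, Chrm3 and Mrs2, at 0.999, 0.998 and 0.997. Their log2 fold changes ran from -2.95 to -0.30. Correlations over 0.99 with Bmp2 were found for 58 of 13554 genes, and with Fst for 22, and the points share the same 6 libraries and the same pair of groups.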

How the data were processed

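RNA sequencing of 3 CTL and 3 TGF-β1–treated cultures of RTECs was analysed. The authors isolated poly(A) RNA, sequenced single 50-bp reads, and trimmed, aligned and counted them on GRCm38. The submitters' processing notes name Trim Galore, STAR 2.4.1d and HTSeq 0.6.1. The deposited values are read counts per gene and carry no normalization. Reads with no gene (4.16% to 4.93%), more than 1 gene (1.88% to 1.97%) or more than 1 place (18.7% to 19.4%) are listed in rows of their own and were left out. The annotation release and the strand setting are not given in the sources used here. GENCODE M21 matched 46005 of 46517 identifiers and gave symbols, positions and exon lengths. Groups and replicate numbers came from the labels.

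Counts were tested in R 4.3.3 with edgeR 4.0.16 (filterByExpr by group, TMM, robust glmQLFit, glmQLFTest, two-sided, Benjamini-Hochberg adjustment over 15862 genes, threshold 0.05). Standard errors were derived from the edgeR test, as the size of the log2 fold change over the square root of its F statistic. Normalized counts are TMM-scaled, as are all CPM but those of the floor. Across genes, the deviations of a CTL and a TGF-β1 culture from their group means had r = 0.34, 0.684 and 0.572 for equal numbers and -0.617 to 0.215 for unequal ones. Equal numbers were thus treated as pairs, though the labels state no pairing. The match was least clear for replicate 1 (0.34, against 0.215 for CTL replicate 1 with TGF-β1 replicate 3). Deviations from a group mean cancel out within the group, so the values for equal and unequal numbers are not independent. The pairing was read from the same counts that were then fitted. The fit with the number as a block was an alternative, since the study compared groups unpaired. The other alternatives were RLE or library size scaling, DESeq2 1.42.0, limma-voom (limma 3.58.1), no filter or 10 counts in every culture, down-sampling, a threshold of 0.01, leaving out each culture, and leaving out both cultures of 1 number with the block. Leaving these out without the block, and levels per kb of unshared exon, were added after seeing the data. Two-sided exact permutation of 3 against 3 cultures cannot go below p = 0.1 and was not used.

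The 10 genes, the gene lists and the markers were chosen with earlier results of these data known. Named were the 10 genes, up to 5 called genes of each list by size of change (some are not reported here), and the 3 tested genes of at least 1 CPM most like Bmp2 and Fst in log2(CPM + 0.5). Inha, Atoh8, Id1, Id3, Id4 and Smad6 were named beside this rule after their values were seen. Hjv was matched through its older symbol Hfe2, and Gdf1 was not matched. Promoter sequences are RefSeq's for GRCm38.p6. The fits were tested on simulated counts drawn with no effect of the replicate number, so this could not check how the fits handle one. Figures were drawn with matplotlib 3.10.9.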

Additional observations from a re-analysis of the deposited data

How the results depend on the processing

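Of the 10 genes, Fst and Bmp2 lost their call only without the block and without replicate 1 (Fst and Bmp2) or 3 (Fst) in both groups. With the replicate block 2 genes were higher and 7 lower, against 1 and 3 without it. It added Inhba, Bmp4, Bmp7, Grem1 and Bambi and changed no other call. DESeq2 gave 2 higher and 4 lower, with Inhba and Grem1 added, and no filter or a threshold of 0.01 gave 0 higher and 2 lower. Over all genes, DESeq2 called 1110 higher and 1501 lower of 17256, and no filter gave 739 and 1001 of 27562. Without 1 culture, 0 to 1 were higher and 2 to 3 lower. With the block and without replicate 1, 2 or 3 in both groups there were 2 higher each and 5, 7 and 6 lower. Without the block these fits gave 0, 2 and 0 higher and 0, 3 and 1 lower. Inhbb, which was never called, turned to 0.016 by limma-voom, to 0.27 when CTL replicate 3 was left out, to 0.13 when TGF-β1 replicate 2 was (range -0.34 to 0.27), to 0.0072 and 0.071 with the block without replicates 1 and 3, and to 0.048 without the block and replicate 3.

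Over all genes 793 were higher and 1061 lower, against 2388 and 3037 with the replicate block, 508 and 1467 with library size only, and 127 and 192 at a threshold of 0.01. In the fits without 1 culture 109 to 516 were higher and 186 to 807 lower. With the block and without replicate 1, 2 or 3 in both groups, 1026, 2288 and 2581 were higher and 1649, 2718 and 3254 lower. Without the block, leaving out replicate 1 in both groups gave 0 by edgeR in either direction (1938 genes at an unadjusted p under 0.05). Leaving out replicate 2 gave 1084 higher and 1290 lower, and leaving out replicate 3 gave 95 and 190. Those fits compare 2 cultures with 2, and the cause of the differences was not tested.

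Groups of 3 limit these results: a gene that was not called may differ by less than its spread. Strand-blind counting could leave out reads from the exon bases that Fstl3, Bmp4, Bmp6 or Fst share with their overlapping genes. Without length scaling the log2 ratio of activin subunits to follistatins was -2.89 in CTL, against -3.31 per kb.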
